A study of Mus musculus with 8 samples.

Results

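The transcripts of 9 hepatic enzymes that break down amino acids were followed in mouse liver with and without Med23, a subunit of the Mediator complex that connects transcription factors with RNA polymerase II. The genes were taken by symbol: Tat, Got1, Gpt, Gpt2, Sds, Hal, Gls2, Tdo2 and Hpd. Each had 1 locus, so 9 of the 23699 annotated loci were followed, and all 9 passed the filter on low values that left 10865 loci for testing (1 FPKM reached in 2 or more libraries). FPKM is the number of sequenced fragments scaled to the length of the transcript and to the size of the library. All libraries came from polyadenylated liver RNA of male C57/BL6 mice aged 8 weeks. The genotypes were control and LMKO, a liver-specific knockout of Med23. Mice of either genotype went without food for 24 h, and some of them were then given food again for 24 h before the liver was taken (re-fed). Each of the 4 groups held 2 mice. The sources used here do not give the promoter that drives the deletion or the alleles carried by the controls.

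The liver takes up amino acids that muscle releases in fasting, removes their nitrogen and passes the carbon skeletons on to glucose. Aminotransferases move the amino group to 2-oxoglutarate (Tat from tyrosine, Got1 from aspartate, Gpt and Gpt2 from alanine in the cytosol and in mitochondria). Other enzymes release ammonia directly: Sds converts serine to pyruvate, Hal converts histidine to urocanate, and Gls2 is the liver glutaminase. Tdo2 opens the ring of tryptophan in the first step of its breakdown, and Hpd acts on the keto acid that Tat makes from tyrosine. Tat and Tdo2 are classical targets of glucocorticoids, and Tat is also induced by glucagon through cyclic AMP.

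The files do not give the depth of the libraries. The deposited FPKM summed to 453652 in the lowest and 597650 in the highest library, with 10096 to 10403 loci at 1 FPKM or more. Fragment numbers are unknown. The value of 1 fragment, read from recurring ratios of low FPKM values, was 0.899 to 1.05 times that in fasted control replicate 1. Only ratios near 1 were searched, so a larger difference in depth could not show. In the other libraries 19.7% to 23.0% of the low loci compared lay at the recurring ratio. Med23 FPKM after fasting was 2.86 and 2.93 in control against 2.35 and 2.18 in LMKO liver, and after re-feeding 2.86 and 2.33 in control against 1.61 and 1.74 in LMKO liver. The knockout was below both controls of its feeding state, but the difference did not pass in either state (limma adjusted p = 0.438 and 0.315). Across genes, the deviation of each gene from its mean over the 8 libraries correlated with log2 transcript length at 0.222 to 0.293 in the fasted libraries, -0.0182 in re-fed control replicate 1 and -0.357 to -0.325 in the other re-fed libraries; genes are not independent replicates here. This length dependence moved with feeding, as did a number prefix in the deposited names, and if that prefix marks a batch, batch and feeding cannot be told apart. Of the 7 hepatocyte markers found, Alb was listed at 0 in every library, which can be a failed estimate, and the summed level of the list was 19673 to 28986 FPKM. In these bulk samples, fewer cells of a type and less RNA per cell cannot be told apart.

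The 9 enzymes covered a wide range of levels. In fasted controls Hpd was the highest with a mean of 2759 FPKM (rank 22 of all loci), followed by Tat with 1530.0 (rank 46) and Tdo2 with 1413 (rank 49). The libraries of Tat and Tdo2 overlapped, so the order of these neighbours did not exceed their spread. Got1 followed with 484, then Gpt2 and Sds with 207 each, Gpt with 126, Gls2 with 118 and Hal with 91.1 FPKM (rank 730). The libraries of Sds overlapped with those of Gpt2 and of Gpt, and those of Gpt with those of Gls2. Summed over the 9 enzymes, the level after fasting was 6062 and 7808 FPKM in control and 3930 and 4532 in LMKO liver, and after re-feeding 4319 and 4503 in control and 4516 and 4719 in LMKO liver. The fasted controls thus stood above all other libraries, and the other groups lay close together. The sum is mostly Hpd, Tat and Tdo2.

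**Figure D1:**
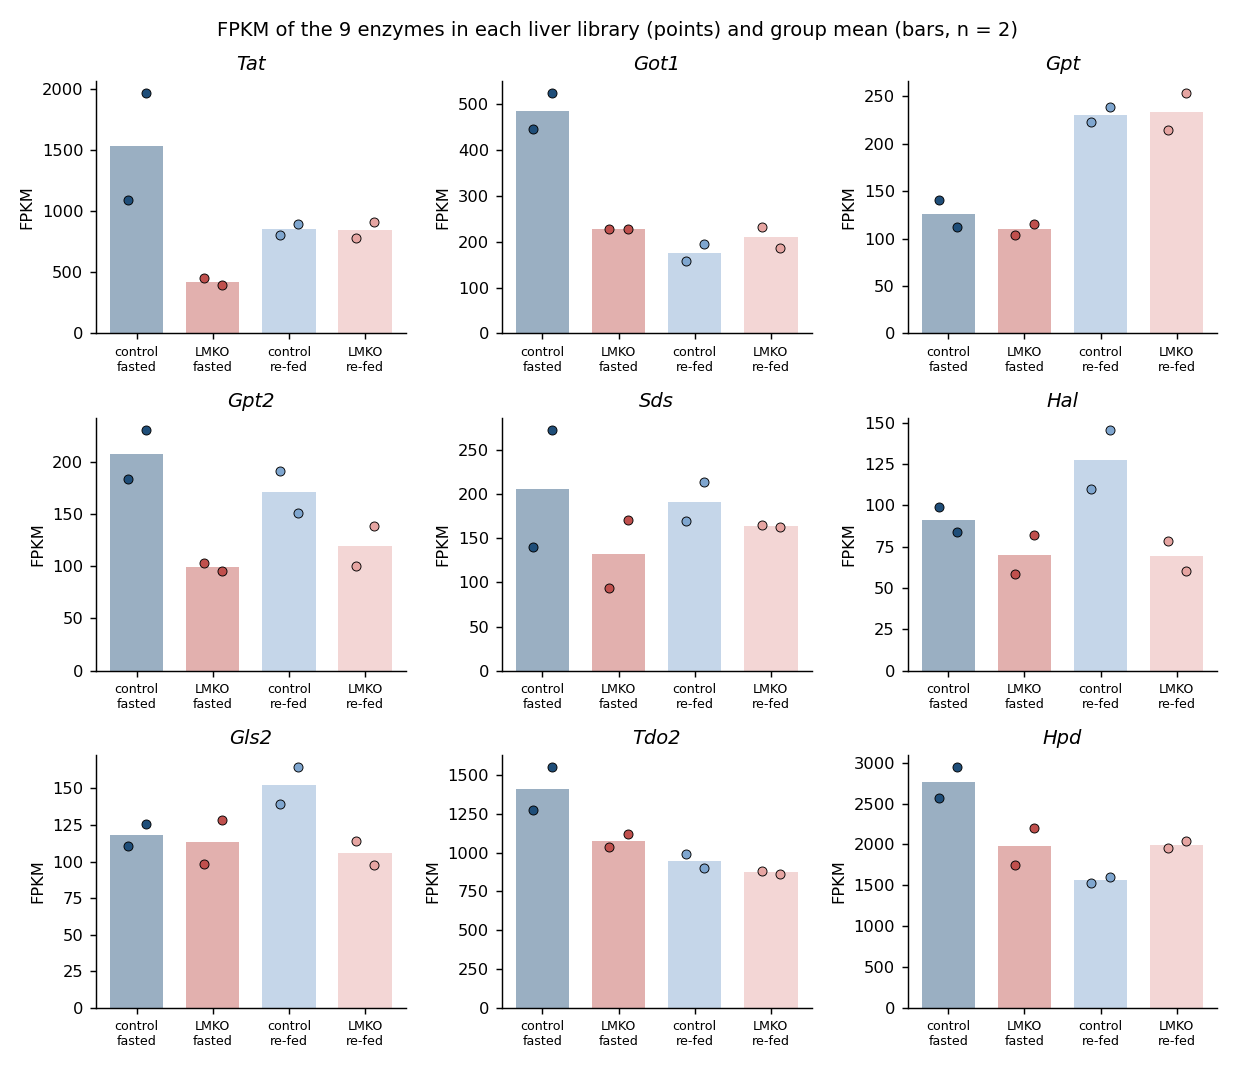
FPKM (vertical axis, linear from 0) of each enzyme in the 4 groups (horizontal axis); points are libraries and bars are means of 2 libraries. Tat, Got1, Tdo2 and Hpd were highest in both fasted controls, Gpt was higher in all re-fed libraries than in all fasted ones, and Hal and Gls2 were highest in both re-fed controls.

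The first comparison asked how loss of liver Med23 altered these enzymes after fasting. Every one of the 9 enzymes had a lower mean in fasted LMKO than in fasted controls, against 35.1% of tested genes with a lower value. The 9 were chosen with earlier results of these data known, so the shares over all genes describe and are no independent test. The largest differences were in the aminotransferases Tat (27.6% of the control mean), Got1 (47.0%) and Gpt2 (47.9%). None passed at an adjusted p under 0.05, against 0.166% of all tested genes (18 of 10865). At an unadjusted limma p under 0.05, 5 of the 9 were lower and 0 higher, against 3.56% of tested genes lower and 8.79% higher. Libraries of the genotypes did not overlap for 6 of the 9, all lower in LMKO, against 12.8% of tested genes that were lower and 33.0% that were higher without overlap. The median log2 fold change was -0.49 over the 9 enzymes and 0.08 over all tested genes; all fold changes are on the log2(FPKM + 1) scale, LMKO over control.

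Tat (chr8, 112514336 to 112523704, mm9) was at 1094 and 1966 FPKM in the fasted controls and at 452 and 393 in fasted LMKO. Both knockout libraries were below both controls, but the controls themselves differed widely. The log2 fold change was -1.80 (95% CI -2.44 to -1.15, SE 0.27, limma adjusted p = 0.0851). Without fasted control replicate 1 it was -2.22 and passed (limma adjusted p = 0.0125), and over all alternatives the limma adjusted p ran from 0.0125 to 0.29. Got1 (chr19, 43574243 to 43599095) was at 445 and 523 FPKM in the fasted controls and at 228 and 227 in fasted LMKO. Here the replicates were close in both genotypes, and the groups were well apart. Its log2 fold change was -1.08 (95% CI -1.48 to -0.68, SE 0.17, limma adjusted p = 0.0926, 0.076 to 0.285 over the alternatives). Gpt2 (chr8, 88016516 to 88051457), the mitochondrial alanine aminotransferase, was at 184 and 230.0 FPKM in controls and at 103 and 95.2 in LMKO. Its groups did not overlap either (-1.05, 95% CI -1.54 to -0.55, limma adjusted p = 0.145). Gpt (chr15, 76527194 to 76530105), the cytosolic alanine aminotransferase, was at 141 and 112 FPKM in controls and at 104 and 115 in LMKO, and the groups overlapped. Its interval, -0.57 to 0.18 around -0.20, lay above most of the interval of Gpt2; the difference between the isoenzymes was not tested.

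Among the enzymes that release ammonia, Sds, Hal and Gls2 were each lower on average in fasted LMKO and none passed. Sds (chr5, 120926556 to 120933914) was at 140.3 and 273 FPKM in controls and at 94.1 and 171 in LMKO. The replicates within each group lay farther apart than the group means (-0.62, 95% CI -1.51 to 0.27, limma adjusted p = 0.545). Hal (chr10, 92951513 to 92979488) was at 98.8 and 83.5 FPKM in controls and at 58.5 and 81.9 in LMKO, so the groups barely separated (-0.39, limma adjusted p = 0.543). Gls2 (chr10, 127631691 to 127647060) was at 111 and 126 FPKM in controls and at 98.6 and 129 in LMKO, with overlap (-0.07, 95% CI -0.49 to 0.35, limma adjusted p = 0.906). The Gls2 locus overlaps Spryd4 by 95 bases and the Sds locus overlaps Plbd2 by 13 bases; the strand setting of the counting is not stated in the labels, so reads there cannot be told apart.

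The dioxygenases Tdo2 and Hpd were lower in fasted LMKO by less than the aminotransferases Tat, Got1 and Gpt2. Tdo2 (chr3, 81762336 to 81779650) was at 1275 and 1551 FPKM in controls and at 1039.7 and 1118 in LMKO. Hpd (chr5, 123621816 to 123632695) was at 2573 and 2944 FPKM in controls and at 1752 and 2203 in LMKO. Neither gene's groups overlapped. The log2 fold changes were -0.38 for Tdo2 (95% CI -0.72 to -0.05, limma adjusted p = 0.346) and -0.49 for Hpd (95% CI -0.85 to -0.12, limma adjusted p = 0.29).

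RefSeq promoter windows, on build GRCm38.p6 and not the mm9 of the deposited positions, were matched by symbol for 6 of the 9 genes and not for Gpt, Sds and Gls2. The 250 bases before the transcription start are shown for Tat and Got1, which had the largest genotype differences after fasting, and for Hal, which had the largest after re-feeding. Capitals mark every match to the motifs searched, on either strand.
Tat (chr8:109990186-109990435, plus strand): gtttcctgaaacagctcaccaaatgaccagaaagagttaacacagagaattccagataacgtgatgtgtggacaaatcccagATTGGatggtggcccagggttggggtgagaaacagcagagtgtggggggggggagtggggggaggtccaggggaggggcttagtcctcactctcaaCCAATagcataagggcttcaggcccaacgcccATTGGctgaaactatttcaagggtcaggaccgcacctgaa
Got1 (chr19:43524606-43524855, minus strand): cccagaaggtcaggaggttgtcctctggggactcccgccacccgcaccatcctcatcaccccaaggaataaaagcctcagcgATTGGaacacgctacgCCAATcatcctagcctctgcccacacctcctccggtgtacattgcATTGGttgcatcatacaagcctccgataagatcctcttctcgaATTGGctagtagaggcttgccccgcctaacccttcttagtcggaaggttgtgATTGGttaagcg
Hal (chr10:93488518-93488767, plus strand): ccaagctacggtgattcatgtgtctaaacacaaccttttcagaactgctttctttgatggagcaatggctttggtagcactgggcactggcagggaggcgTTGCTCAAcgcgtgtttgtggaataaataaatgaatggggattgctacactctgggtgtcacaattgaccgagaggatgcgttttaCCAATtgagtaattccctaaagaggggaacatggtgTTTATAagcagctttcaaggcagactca
In Tat and Got1 the capitals are all CCAAT boxes (CCAAT or its reverse complement), 3 in Tat and 5 in Got1. CCAAT was added after the windows were seen; it occurs in 4 of the 6 windows and in 33.8% of the 32851 windows of all genes. Hal holds 1 CCAAT, 1 C/EBP motif (TTGCNNAA, in 9.56% of all windows) and 1 TATA box (TATAAA, read on the opposite strand as TTTATA, in 12.4%). The cyclic AMP response element TGACGTCA (1.55% of all windows), its short form TGACG (17.8%), the long glucocorticoid receptor element (0.00913%), its short form TGTTCT (16.1%), the FOXO element TGTTTAC (3.17%) and the insulin response sequence CAAAACA (5.56%) were in none of the 6 windows. The short forms overlap the long ones. A match is only a run of letters, and elements farther from the start lie outside these windows.

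The same comparison was made after re-feeding. Tat, Got1 and Gpt had means in LMKO of 99.3%, 119% and 101% of control, while Hal (54.3%), Gls2 (69.6%) and Gpt2 (69.9%) were the lowest against control. None of the 9 passed, against 0.101% of tested genes (11 of 10865). At an unadjusted limma p under 0.05, 3 were lower (Hal, Gls2 and Gpt2) and 0 higher, against 4.57% of tested genes lower and 7.11% higher. In 5 enzymes LMKO was lower without overlap, against 19.4% of tested genes, and in 1, Hpd, it was higher without overlap, against 25.6%. The median log2 fold change was -0.12, beside 0.01 over all tested genes.

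Hal was at 109.7 and 145 FPKM in control mice after re-feeding and at 78.3 and 60.2 in re-fed LMKO. All LMKO libraries of Hal, fasted or re-fed, were below all 4 controls. The re-fed log2 fold change was -0.87 (95% CI -1.42 to -0.32, limma adjusted p = 0.312). Gls2 was at 139.6 and 164 FPKM in controls and at 114 and 97.4 in LMKO, again without overlap (-0.52, 95% CI -0.94 to -0.10, limma adjusted p = 0.367). Gpt2 was at 191 and 151 FPKM in controls and at 99.9 and 139 in LMKO (-0.52, 95% CI -1.02 to -0.02, limma adjusted p = 0.417). Gpt2 was therefore the aminotransferase that was lower without overlap in both feeding states. Tat was at 804 and 899 FPKM in controls and at 779.8 and 913 in LMKO, so that the knockout libraries lay on either side of the controls. Its interval of -0.66 to 0.63 around -0.01 still allows a sizeable difference. Got1 was at 157 and 194 FPKM in controls and at 232 and 187 in LMKO, with overlap (0.25, 95% CI -0.15 to 0.65, limma adjusted p = 0.589).

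Hpd was at 1533 and 1595 FPKM in control mice after re-feeding and at 1950.3 and 2044 in re-fed LMKO. The knockout was higher here and lower after fasting, with no overlap in either state (0.35, 95% CI -0.01 to 0.72, limma adjusted p = 0.44). Such opposite differences without overlap in both states were seen in 7.61% of tested genes. Tdo2 was at 992 and 902 FPKM in controls and at 882 and 863 in LMKO (-0.12, limma adjusted p = 0.767). Gpt was at 223 and 238 FPKM in controls and at 214 and 253 in LMKO, with an interval of -0.36 to 0.39. Sds was at 169.5 and 214 FPKM in controls and at 165 and 163 in LMKO (-0.21, 95% CI -1.11 to 0.68).

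**Figure D2:**
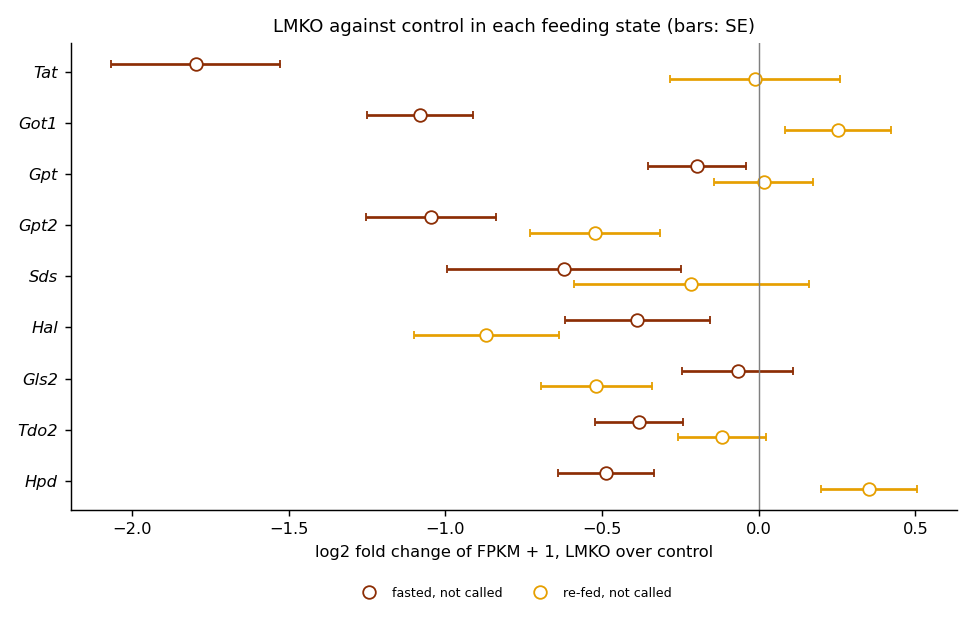
Log2 fold change of FPKM + 1, LMKO over control (horizontal axis), for each enzyme in the fasted and re-fed states; points are limma estimates, bars are SE, and open points did not pass. Tat, Got1 and Gpt2 were lowest after fasting (-1.80, -1.08 and -1.05), Hal was lowest after re-feeding (-0.87), and Hpd lay on opposite sides of 0.

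Averaged over both feeding states, all 9 enzymes had lower values in LMKO, as did 39.7% of tested genes. The median log2 fold change was -0.41, beside 0.04 over all tested genes. The direction of this average was the same in all alternatives for 8 of them, and for Hpd in all but 1 (0.02 without fasted LMKO replicate 1). Gpt2 had the smallest p (-0.78, 95% CI -1.14 to -0.43, limma adjusted p = 0.107), followed by Tat (-0.90, limma adjusted p = 0.139) and Hal (-0.63, limma adjusted p = 0.177). None passed, against 0.313% of tested genes. Without fasted control replicate 1, Tat passed at -1.12 (limma adjusted p = 0.0242).

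The second question was how each enzyme moved when fasted mice were fed again. In control liver Got1 fell to 36.2% of its fasted mean, Hpd to 56.7% and Tdo2 to 67.0%, and Gpt rose to 182%. Thus 4 of the 9 passed, against 33.2% of tested genes: 3 fell and 1 rose, against 10.5% and 22.8%, and 5 did not pass. Libraries of the states did not overlap for 4 lower and 3 higher enzymes, against 25.0% and 43.9% of tested genes. The median log2 fold change, re-fed over fasted, was -0.28, beside 0.13 over all tested genes. Got1 went from 445 and 523 to 157 and 194 FPKM (-1.46, SE 0.17, limma adjusted p = 0.00272). Hpd went from 2573 and 2944 to 1533 and 1595 FPKM (-0.82, SE 0.15, limma adjusted p = 0.0104). Tdo2 went from 1275 and 1551 to 992 and 902 FPKM (-0.57, SE 0.14, limma adjusted p = 0.0233). Gpt, from 141 and 112 to 223 and 238 FPKM, took the opposite course (0.87, SE 0.16, limma adjusted p = 0.00932). For each of these 4 genes the fasted and re-fed controls were fully apart. Got1, Gpt and Hpd passed in all 16 alternatives. Tdo2 passed in 12 and was lost without fasted control replicate 2, without re-fed control replicate 2, with only the 4 control libraries and with no filter (limma adjusted p = 0.0943, 0.0982, 0.0909 and 0.0632).

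Tat in control liver went from 1094 and 1966 to 804 and 899 FPKM, without overlap, and did not pass (-0.79, 95% CI -1.43 to -0.14, limma adjusted p = 0.0644). It passed after median-ratio scaling, after quantile normalization, with the length trend removed and without fasted control replicate 1 (limma adjusted p = 0.0454, 0.0376, 0.0385 and 0.00923). Without fasted control replicate 2 the change was -0.36. Hal (0.47, limma adjusted p = 0.159) and Gls2 (0.36, limma adjusted p = 0.161) had higher values in both re-fed controls than in both fasted ones and did not pass. Gpt2 (-0.28, 95% CI -0.77 to 0.22) and Sds (-0.04, 95% CI -0.93 to 0.85) overlapped between the states.

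In LMKO liver 2 of the enzymes passed. Tat rose, from 452 and 393 to 779.8 and 913 FPKM (1.0, SE 0.27, limma adjusted p = 0.0266), and Gpt rose, from 104 and 115 to 214 and 253 FPKM (1.08, SE 0.16, limma adjusted p = 0.00368). No enzyme fell. The 2 calls stood against 39.5% of tested genes called, 23.2% that rose and 16.3% that fell; 2 enzymes were higher and 1 lower without overlap, against 41.5% and 33.8%, and the median was 0.02, beside 0.06 over all tested genes. Gpt passed in all 16 alternatives. Tat passed in 9 and was lost without any 1 of the 4 LMKO libraries, with no filter, after quantile normalization and with the length trend removed (limma adjusted p up to 0.226). Got1 was at 228 and 227 FPKM fasted and 232 and 187 re-fed (-0.13, 95% CI -0.53 to 0.27), and Hpd at 1752 and 2203 fasted and 1950.3 and 2044 re-fed (0.02, 95% CI -0.34 to 0.39). Tdo2 was lower in both re-fed LMKO libraries than in both fasted ones (-0.30, limma adjusted p = 0.127). Quantile normalization gave another picture for LMKO, with Gpt higher and both Got1 (-0.62) and Tdo2 (-0.87) lower among the calls.

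**Figure D3:**
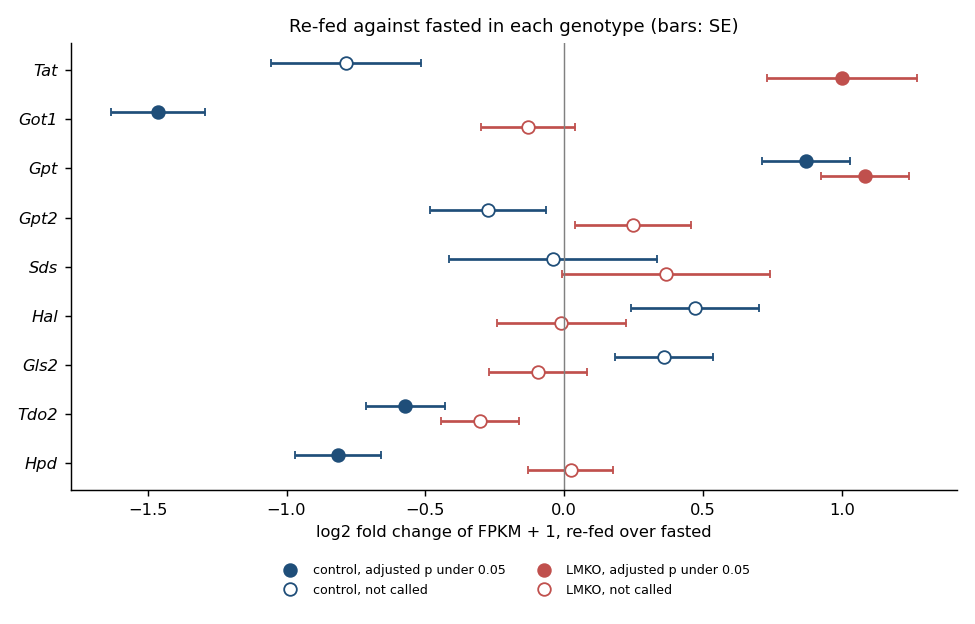
Log2 fold change of FPKM + 1, re-fed over fasted (horizontal axis), for each enzyme in control and LMKO liver; points are limma estimates, bars are SE, and filled points passed at an adjusted p under 0.05. Tat lay at -0.79 in control and 1.0 in LMKO, Got1 at -1.46 and -0.13, and Gpt at 0.87 and 1.08.

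The fasted genotype comparison and re-feeding in controls share the fasted control libraries, so their values are not independent of each other. Whether the responses themselves differed was tested with the difference of the re-feeding changes, LMKO minus control. It was 1.79 for Tat (95% CI 0.87 to 2.70, limma adjusted p = 0.481), 1.33 for Got1 (95% CI 0.76 to 1.90, limma adjusted p = 0.451) and 0.84 for Hpd (95% CI 0.32 to 1.36, limma adjusted p = 0.485). None of the 9 passed, against 0.0368% of tested genes (4 of 10865). At an unadjusted limma p under 0.05, 3 enzymes (Tat, Got1 and Hpd) were higher and 0 lower, against 3.25% and 6.1% of tested genes. For Tat the re-feeding differences of the genotypes had opposite signs with no overlap in either, as in 2.71% of tested genes. The lowest adjusted p over the alternatives was 0.0545, for Tat without fasted control replicate 1 (2.21, limma). For Gpt the difference was 0.21 (95% CI -0.32 to 0.74), and for Gpt2, Sds and Tdo2 it was 0.52, 0.41 and 0.27. Hal (-0.48, 95% CI -1.26 to 0.30) and Gls2 (-0.45, 95% CI -1.05 to 0.14) lay on the other side of 0.

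Length and scaling moved with feeding and touch these re-feeding values. The median of all tested genes in control re-feeding was 0.13 as deposited and 0.01 after median-ratio scaling, and the share of calls that were higher was 68.5% as deposited, 53.3% after that scaling, 49.7% after quantile normalization and 50.6% with the length trend removed. Under each of these, Got1, Hpd and Tdo2 stayed among the falls and Gpt among the rises in control liver. The longest transcripts of the 9 genes ranged from 1288 bases (Sds) to 5319 bases (Hal), with Got1 at 2058 and Hpd at 1404.

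Other genes of amino acid breakdown were measured in the same libraries. Of 60 other genes from 8 lists, 59 were tested. In the fasted genotype comparison 0 passed, against 0.166% of tested genes. In LMKO 28 had a lower and 31 a higher value, against 35.1% and 64.8% of tested genes. The median was 0.01, beside 0.08 over all tested genes. At an unadjusted limma p under 0.05, 11 of the 59 were lower and 4 higher, against 3.56% and 8.79% of tested genes. The lowest values included Bhmt, which remethylates homocysteine with betaine (-1.96, limma adjusted p = 0.164), Mat1a, which makes S-adenosylmethionine (-1.05, limma adjusted p = 0.128), and Gldc, the decarboxylase of the glycine cleavage system (-1.04, limma adjusted p = 0.129). Bhmt was at 5576 and 2484 FPKM in fasted controls and 845 and 1078 in fasted LMKO, and Mat1a at 3784 and 4379 against 2169.6 and 1770.5. The methionine and cysteine list had a median of -0.60, with 6 of 7 members lower, against 35.1% of tested genes. The tyrosine and phenylalanine list, which holds the enzymes before Tat and after Hpd, had a median of 0.08.

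On re-feeding, 20 of these 59 genes rose and 5 fell in control liver, against 22.8% and 10.5% of tested genes, and likewise 20 rose and 5 fell in LMKO liver, against 23.2% and 16.3%. The medians were 0.35 and 0.39, beside 0.13 and 0.06 over all tested genes. After quantile normalization 8 rose and 12 fell in control, 8 rose and 10 fell in LMKO, and the medians were 0.01 and -0.05, so the direction of the list as a whole depends on scaling. Of the tyrosine and phenylalanine genes 4 of 6 rose in each genotype, among them Pcbd1 (1.34 and 1.39, limma adjusted p = 0.00207 and 0.00157) and Qdpr (1.37 and 1.44, limma adjusted p = 0.00648 and 0.00408), which recycle the pterin cofactor of phenylalanine hydroxylase. The falls in control were Mat1a, Aass, Sdsl, Ahcy and Cdo1, at -2.49, -1.65, -1.43, -1.20 and -1.20; Mat1a and Ahcy passed in all 16 alternatives, Sdsl in 13, Aass in 12 and Cdo1 in 11. Mat1a, at 704 and 742 FPKM in re-fed control mice and 396 and 531 in re-fed LMKO, fell in LMKO too (-2.09, limma adjusted p = 0.0013). Aass, the first enzyme of lysine breakdown, did not pass in LMKO (-0.30, limma adjusted p = 0.566); the difference of the responses, 1.34, did not pass either (limma adjusted p = 0.53).

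**Figure D4:**
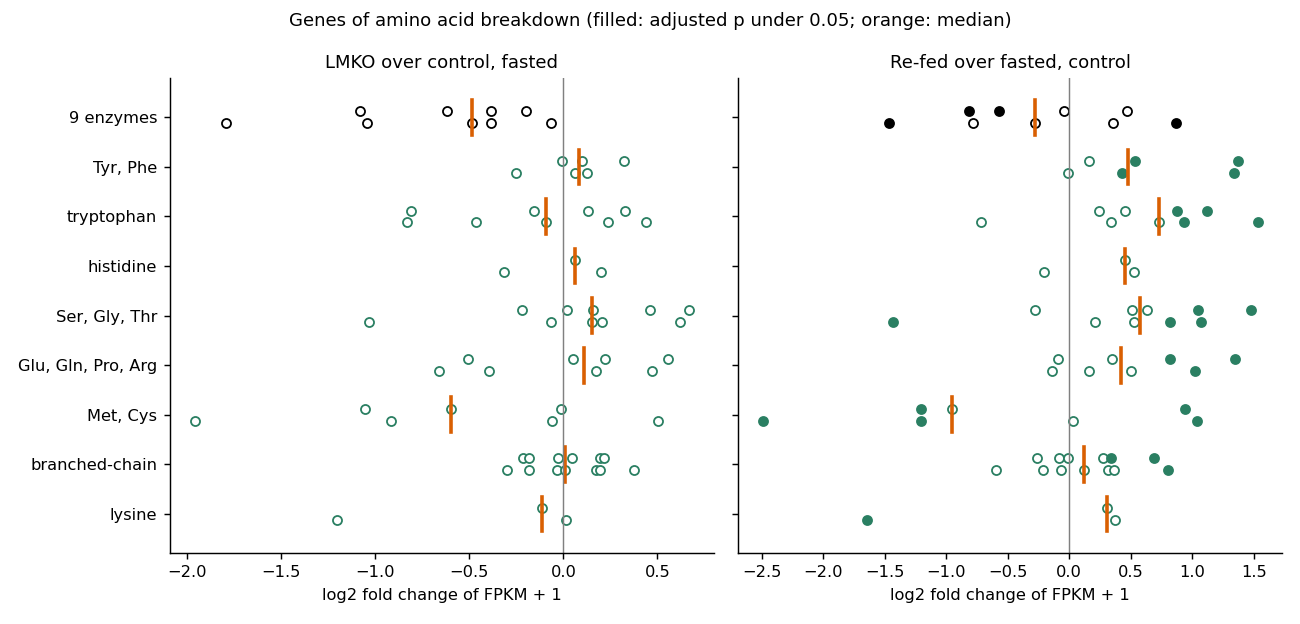
Log2 fold change of FPKM + 1 for the 9 enzymes and the 8 lists of other amino acid breakdown genes, LMKO over control after fasting (left) and re-fed over fasted in control (right); points are genes, filled where limma passed, and orange lines are medians. On the left the 9 enzymes have a median of -0.49 and the methionine and cysteine list one of -0.60, and on the right the same lists lie at -0.28 and -0.96 while the tryptophan list lies at 0.73.

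Genes downstream of these enzymes and regulators linked to them were measured in the same libraries. Pck1, which commits oxaloacetate to glucose synthesis, was at 2244 and 2128 FPKM in fasted controls and 824 and 855 in fasted LMKO, a difference that passed (-1.38, limma adjusted p = 0.0133); it was the 1 of 9 gluconeogenesis genes beyond amino acids that passed, against 0.166% of tested genes, and the list median was -0.52. The Pck1 call held in 12 of 16 alternatives and was lost without either fasted LMKO library, with only the 4 fasted libraries and with no filter (limma adjusted p = 0.107, 0.0846, 0.12 and 0.0558). Ppargc1a, a coactivator of the fasting response, was at 6.66 and 6.64 against 3.14 and 3.40 FPKM (-0.84, limma adjusted p = 0.0541). Of 13 transcription factors linked to the enzymes 0 passed, against 0.166% of tested genes, with 2 lower and 1 higher at an unadjusted limma p under 0.05, against 3.56% and 8.79%. The smallest p belonged to Cebpb, a C/EBP family factor, at 30.9 and 42.9 FPKM in fasted controls and 13.3 and 15.02 in fasted LMKO (-1.31, limma adjusted p = 0.0979). Klf15, a factor known for inducing amino acid breakdown, was at 64.1 and 61.0 against 55.7 and 46.0 FPKM (-0.30, limma adjusted p = 0.403). Nr3c1, the glucocorticoid receptor, had a higher value in LMKO (0.56, limma adjusted p = 0.253). Cebpb was lower in the re-fed than in the fasted controls, at 13.5 and 15.4 FPKM (-1.28, limma adjusted p = 0.00691). Of the 13 factors, 10 had lower values on re-feeding in controls, as did 39.9% of tested genes. Among the calls there, 3 fell and 1 rose, against 10.5% and 22.8% of tested genes.

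All 8 glucocorticoid response genes had lower values in fasted LMKO, as did 35.1% of tested genes. None passed, 3 were lower at an unadjusted limma p under 0.05 (3.56% of tested genes), and the median was -0.72. Angptl4, a lipase inhibitor, was at 115 and 162 FPKM in fasted controls and 63.8 and 59.4 in fasted LMKO (-1.13, limma adjusted p = 0.266). Fkbp5, a chaperone of the receptor, was at 56.7 and 119.9 against 48.0 and 69.5 FPKM, with overlap. Fasted control replicate 2 was the higher control here, as in all of the 9 enzymes except Gpt and Hal. The 9 enzymes summed to 7808 FPKM in it and to 6062 in replicate 1. On re-feeding, 3 of the 8 fell in controls (10.5% of tested genes), and 3 fell and 1 rose in LMKO (16.3% and 23.2%), Angptl4 with log2 fold changes of -3.33 and -2.45 (limma adjusted p = 0.00197 and 0.00319).

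Sds, Hal and Gls2 are known as enzymes of periportal hepatocytes, the cells near the incoming blood. Over 7 periportal markers that are not among the 9 enzymes, the summed FPKM was 6963 to 8106 in fasted control mice, 4161 to 4401 in fasted LMKO, 4687 to 5059 in re-fed control mice and 3849 to 4065 in re-fed LMKO. Of these markers 5 of 7 were lower in fasted LMKO, as were 35.1% of tested genes, and Pck1 and Cps1 hold much of the sum. The sum over 10 pericentral markers was 8712 to 9532 in fasted control mice, 8441 to 9448 in fasted LMKO, 5020.0 to 5149 in re-fed control mice and 6328 to 7548 in re-fed LMKO. This sum fell on re-feeding, but 7 of the 10 markers had higher values in each genotype (60.1% and 54.4% of tested genes). Their medians were 0.22 in control and 0.60 in LMKO. In control 3 rose and 1 fell (22.8% and 10.5% of tested genes), and in LMKO 5 rose and 1 fell (23.2% and 16.3%). The periportal sum was thus lower in LMKO in both feeding states, with 6 of 7 markers lower after re-feeding (48.5% of tested genes). After fasting 1 marker, Pck1, passed (0.166% of tested genes), and after re-feeding 0 (0.101%). The median log2 fold change of the periportal markers, LMKO over control, was -0.51 after fasting and -0.14 after re-feeding, beside 0.08 and 0.01 over all tested genes. The re-fed LMKO means of Sds, Hal and Gls2 were 85.5%, 54.3% and 69.6% of control. Those of the other enzymes ran from 69.9% (Gpt2) to 128% (Hpd), with Tat at 99.3% and Got1 at 119%. After fasting Sds, Hal and Gls2 were at 64.1%, 77.0% and 96.1%, and the others ran from 27.6% (Tat) to 86.7% (Gpt). The part of these markers in the enzymes' values was not tested. Among other cells, the 7 sinusoidal endothelial markers summed to 67.6 to 72.9 FPKM in fasted control mice, 91.7 to 95.1 in fasted LMKO and 40.3 to 53.7 in the re-fed groups. All 7 had higher values in fasted LMKO, as did 64.8% of tested genes, and 0 passed (0.166% of tested genes). On re-feeding 5 fell in control (10.5% of tested genes) and 6 in LMKO (16.3%). The 7 Kupffer cell markers summed to 77.5 to 88.5, 85.7 to 113, 67.7 to 77.2 and 33.3 to 51.3 FPKM in fasted control, fasted LMKO, re-fed control and re-fed LMKO, and the 7 stellate cell markers to 91.5 to 94.1, 93.3 to 104, 62.8 to 78.3 and 44.5 to 60.2. In the same order, 5 cholangiocyte markers summed to 8.40 to 12.03, 8.12 to 9.43, 28.5 to 30.1 and 24.2 to 26.3 FPKM, and 5 red blood cell genes to 61.7 to 105, 46.1 to 52.7, 110.1 to 161 and 98.9 to 135. The stellate sum fell on re-feeding in controls, but 4 of its 7 markers had higher values there (median 0.25, 60.1% of tested genes higher). In LMKO 3 of the 7 had higher values (median -0.54, 54.4% of tested genes higher). The part of any of these cell types in the re-feeding values was not tested. Lymphocyte markers summed to at most 3.43 FPKM and kidney tubule markers to at most 0.0128 in any library. Of the pancreatic acinar markers Prss1, Cpa1, Pnlip and Amy2a5 were listed at 0 in all libraries, and the fifth, Cela1, was at 4.14 to 9.90 FPKM in fasted and 23.5 to 48.6 in re-fed libraries.

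The genes whose pattern over the 8 libraries was most like that of an enzyme were named from 7315 tested genes that reached 5 FPKM in some group mean, with Pearson r of log2(FPKM + 1) as a plain measure of likeness. The libraries share groups, so these values describe and were not tested. For Tat it was Arg1, the arginase of the urea cycle (r = 0.966), and Ap4b1 (0.947). For Got1 it was Mapk1ip1 (0.970) and AI848100 (0.967), for Gpt Rdh5 (0.995) and 1700123O20Rik (0.989), and for Gpt2 Ankrd33b (0.978) and Hibch, an enzyme of valine breakdown (0.960). For Tdo2 it was Tmem87b (0.993) and Fndc3b (0.983), for Hpd Eif1 (0.923) and Wdr82 (0.914), for Hal Mup5 (0.902) and Gm4956 (0.899), for Gls2 Ccl9 (0.914) and AA465934 (0.901), and for Sds Fabp4 (0.914) and Usp18 (0.873). Arg1 was at 1486 and 1727 FPKM in fasted control mice, 1159 and 1098 in fasted LMKO, 1457 and 1453 in re-fed control mice and 1388 and 1335 in re-fed LMKO, so it had its lowest values in fasted LMKO, as Tat did. Mup5, a major urinary protein gene, was at 10.2 and 13.0 FPKM in re-fed control mice and between 0.698 and 3.14 in the other libraries.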

How the data were processed

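Each library came as a list of 23699 loci with a position, a symbol and an FPKM value, the unit the authors deposited. The tools, per the submitters' processing notes, were TopHat 1.4.1, SAMtools, Cufflinks 2.0.2 and Cuffdiff 2.0.2, on mm9; the annotation, strand setting and any further scaling are not given in the sources used here. Deposited starts were printed 1 higher. These values are scaled, so tests for counts were not used, and the depth in fragments is unknown.

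Groups and replicate numbers came from the sample titles. limma 3.58.1 in R 4.3.3 was fitted to log2(FPKM + 1), which understates changes of low values, for the 10865 loci that reached 1 FPKM in 2 or more of the 8 libraries. One model held the 4 group means (4 residual and 2.74 prior degrees of freedom, eBayes with trend). Two-sided p-values were adjusted after Benjamini-Hochberg over all loci of a comparison, an adjusted p under 0.05 made a call, and 95% intervals came from the same fit. The script was tested on simulated data. Transcript lengths are the longest GENCODE vM21 transcript of a symbol. The 9 genes and all lists were chosen with earlier results of these data known. All 9 genes were named, and from each other list at most the 3 smallest p per comparison among genes that reach 1 FPKM in some group mean; Sdsl, Cdo1 and Fkbp5 were in part chosen after their values were seen. Alternatives were a pseudocount of 0.1, no filter, an FPKM of at least 5, median-ratio scaling, quantile normalization, a replicate block, only the 4 libraries of a comparison, each library left out and, added after seeing the data, removal of the length trend by lowess.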

Additional observations from a re-analysis of the deposited data

Results flagged for a closer look

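Tat and Hpd each had differences of opposite sign in 2 groups compared in the same way, and only the Tat difference between re-fed and fasted LMKO passed (limma adjusted p = 0.0266; Tat in controls 0.0644, Hpd 0.29 fasted and 0.44 re-fed). For Tat, both re-fed controls lay below both fasted controls, while both re-fed LMKO libraries lay above both fasted LMKO libraries, a pattern found in 2.71% of tested genes. The difference of the re-feeding changes was 1.79 (SE 0.38, limma unadjusted p = 0.00254, adjusted p = 0.481), so it did not pass over all genes. For Hpd, both LMKO libraries lay below both controls after fasting and above both after re-feeding, as in 7.61% of tested genes. Its difference was 0.84 (SE 0.22, limma unadjusted p = 0.00668, adjusted p = 0.485) and did not pass either.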

How the results depend on the processing

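Up to 16 alternatives were tried for each value, and the removal of the length trend was chosen after seeing the data. On re-feeding, Got1, Gpt and Hpd in controls and Gpt in LMKO kept their calls in all 16. With each library left out in turn, the number of the 9 enzymes called was 0 to 1 in the fasted genotype comparison, 0 to 1 in the mean of both states and 1 to 2 for re-feeding in LMKO. The last was also 1 with no filter and 1 with the length trend removed, the lost gene being Tat. Over all tested genes the number called with a library left out was 11 to 56 (18 with all libraries) for the fasted genotype comparison, 3 to 14 (11) for the re-fed one, 15 to 55 (34) for their mean, 1562 to 3166 (3610) for re-feeding in controls, 2202 to 4257 (4296) in LMKO and 1 to 15 (4) for the difference of responses. The highest fasted, mean and difference counts were those without fasted control replicate 1. With no filter 11 genes were called in the fasted genotype comparison and 7 for the difference, and with only the 4 libraries of the comparison 19 in the re-fed genotype comparison and 2219 for re-feeding in controls. The mean genotype calls split into 10 higher and 24 lower, and after quantile normalization into 4 and 22.

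Some values that had not passed changed sign under some settings, with sizes of up to 0.41 with all libraries; apart from fewer samples where a library was left out, the cause was not tested. The re-fed genotype value of Tat became 0.00736 with median-ratio scaling, and that of Gpt -0.11 with quantile normalization and -0.0191 with the length trend removed. Gls2 on re-feeding in controls became -0.00601 with quantile normalization, and the difference of responses of Tdo2 -0.15. On re-feeding in LMKO, Hpd became -0.000199 with median-ratio scaling, -0.15 with quantile normalization and -0.45 with the length trend removed; Gpt2 became -0.19 and Sds -0.0844 with quantile normalization, and Sds became -0.14 and Hal 0.20 with the length trend removed. With each library left out the genotype value ran from -0.26 to 0.12 for Gls2 after fasting, from -0.13 to 0.10 for Tat and -0.10 to 0.14 for Gpt after re-feeding, and from -0.15 to 0.0157 for Hpd in the mean. Re-feeding of Sds ran from -0.52 to 0.44 in controls. In LMKO it ran from -0.059 to 0.79 for Sds, -0.14 to 0.19 for Hpd, -0.25 to 0.23 for Hal, -0.28 to 0.10 for Gls2 and -0.28 to 0.026 for Got1. The difference of responses of Sds ran from -0.0705 to 0.88.

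Same-numbered replicates did not deviate together over the tested genes (correlations of -0.0835 to -0.00835 over 6 pairs of groups), so the numbers gave no sign of a pairing. A weak pairing, or one confined to some genes, would not show in these correlations. With the replicate as a block the enzymes' counts of calls were the same, and over all genes 13, 10, 18, 2967, 3804 and 4 were called in the 6 comparisons in the order above. Where leaving out a library left 1 mouse in a group, that mouse was assumed to vary like those of the other groups. With 2 mice a group and unknown fragment numbers, small differences were not detectable. Large ones could also fail to pass, such as Tat at -1.80 after fasting (limma adjusted p = 0.0851). A value that did not pass is therefore no sign that a difference was absent.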

Other observations

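Of 10 amino acid transporters of the liver plasma membrane and mitochondria, 3 fell and 1 rose on re-feeding in controls, against 10.5% and 22.8% of tested genes, and 3 fell and 1 rose in LMKO, against 16.3% and 23.2%. The 4 calls in each genotype were near the share called over all tested genes (33.2% and 39.5%), and over the alternatives the falls ran from 1 to 5 in controls and from 1 to 6 in LMKO. Slc7a2, a transporter of cationic amino acids, had FPKM values after fasting of 191 and 244 in control and 125 and 127 in LMKO liver, and after re-feeding of 66.0 and 70.8 in control and 29.2 and 49.4 in LMKO liver. It fell on re-feeding, with log2 fold changes of -1.64 in controls and -1.70 in LMKO (limma adjusted p = 0.00554 and 0.00362), and both LMKO libraries were below both controls in each state (-0.77 and -0.83, limma adjusted p = 0.294 and 0.328). Slc38a2, a sodium-coupled transporter of neutral amino acids, fell by 1.14 in controls and by 1.46 in LMKO (limma adjusted p = 0.0261 and 0.00986). Slc38a3, a glutamine transporter, rose in controls (0.86, limma adjusted p = 0.0117). Slc7a2 passed in all 16 alternatives in both genotypes, Slc38a2 in 13 in controls and 14 in LMKO, and Slc38a3 in 15.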
